A study of Hevea brasiliensis with 21 samples.

Results

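Latex of untreated, healthy trees of the rubber clone PB217 was compared after 36 months and after 1 month of tapping, with 3 trees at each age of tapping. These 6 libraries were taken by their titles from the 21 of the series and share the clone, the tissue and the absence of ethephon, the ethylene-releasing stimulant of latex flow. The other PB217 libraries, used only for a side-by-side comparison, come from 3 ethephon-treated trees at month 36 that carried tapping panel dryness (TPD, a drying of the tapping cut), and from 3 healthy ethephon-treated trees at month 1. Each library holds the latex of 1 tree, and no tree was sampled at both ages. The month 36 and the month 1 trees were harvested on different days, so time since first tapping, tree and harvest day cannot be told apart. All trees are wild type and of 1 clone, and nothing in the labels gives the age of the trees themselves.

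Latex is the cytoplasm of laticifers, the tube-like cells of the soft bark in which natural rubber is made from isoprenoid units. Each tapping wounds the bark and drains part of this cytoplasm, which the laticifers must then rebuild, so latex RNA comes mainly from cells that synthesise isoprenoids, proteins and membranes between tappings. Ethylene and jasmonate signalling, with their ERF, MYC and WRKY transcription factors, are known to act in the response of laticifers to wounding and stimulation. In bulk latex, fewer cells of a type and less RNA per cell cannot be told apart.

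The libraries held 16901786 to 20033837 counted read pairs at month 36 and 16694058 to 23126417 at month 1, over the 86941 contigs of a reference transcriptome of another clone, PB260. No pair was counted in any of the 6 libraries for 20569 contigs, and 38488 more stayed under a CPM (the pairs counted on a contig per 1000000 pairs of its library) of 1 in 4 or more libraries, which left 27884 contigs for the test. All levels below are CPM normalised by the trimmed mean of M-values (TMM), fold changes are month 36 over month 1, and a call means a p under 0.05 in edgeR's quasi-likelihood test after Benjamini-Hochberg adjustment. Of 14 contigs that were found in the other PB217 trees and nearly absent from PB260, 12 or 13 reached a CPM of 1 in each library, whereas of 21 contigs with the opposite pattern 0 or 1 did. The 4 tested latex protein contigs summed to 2786 to 3155 CPM at month 36 and to 1279 to 2332 CPM at month 1, and the 7 photosynthesis contigs to 3.16 to 3.65 CPM and to 1.16 to 1.77 CPM. Nearly all of the latex protein sum was 1 contig, CL1Contig7138 of HbTCTP1, with means of 2864 CPM at month 36 and 1643 CPM at month 1. The rise of the photosynthesis sum lay in 2 of its contigs, the PsbP domain contig CL1035Contig4 (100 pairs over the month 36 libraries, against 56 over the month 1 libraries) and the translocon contig CL24951Contig1 (61 pairs, against 12). The photosystem D1 contigs had 8 pairs at each age in CL1076Contig14 and 7 pairs, against 10, in CL1076Contig3. Their best matches are Placoneis elginensis and Galdieria sulphuraria, and these counts are too low to compare the groups.

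Month 36 latex differed from month 1 latex in 9831 of the 27884 tested contigs, or 35.3%. Of these, 5036 (18.1% of those tested) were higher at month 36 and 4795 (17.2%) were lower. Most changes were moderate, with a median log2 fold change of 0.98 among the contigs called higher and of -0.87 among those called lower, but large increases outnumbered large decreases. Over 4-fold differences were called in 510 contigs higher at month 36 and in 189 lower, and over 16-fold differences in 79 and 7 contigs. The median over all tested contigs was -0.02. Without month 1 replicate 2, 6554 contigs were called, of which 3048 were lower.

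The trees of a group resembled each other more than those of the other group. Correlations of log2(CPM + 1) across contigs were 0.978 to 0.984 within groups and 0.913 to 0.942 between groups. The first principal component held 70.8% of the variance. Its scores were 43.0, 62.7 and 49.7 in the month 36 trees, against -44.5, -55.3 and -55.6 in the month 1 trees. In 9555 of the called contigs (97.2%) all month 36 trees lay on one side of all month 1 trees, a separation seen in 48.6% of all tested contigs. Nearly every called contig is thus without overlap, so where this is given below for a called contig it adds little to the call. The share of contigs called grew with their level, being 24% under a mean CPM of 2 and 53.9% at a mean CPM of 100 or more. Few changes were a loss or gain of all detectable RNA, since only 2 contigs called higher had no pair in any month 1 library and 0 called lower had none in the month 36 libraries.

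**Figure D1:**
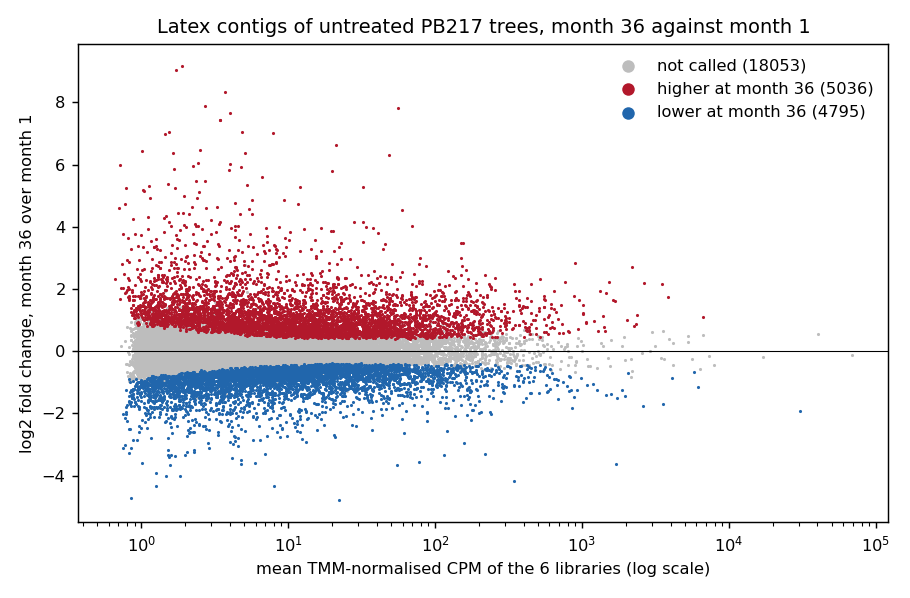
Each point is 1 of the 27884 tested contigs, with its mean TMM-normalised CPM over the 6 libraries on the x axis (log scale) and its log2 fold change, month 36 over month 1, on the y axis. Red points were called higher at month 36 (5036), blue points lower (4795), and increases reach further from 0 than decreases.

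Called transcription factors were mostly higher at month 36. Of 72 listed contigs, 20 were tested, and 12 were higher and 2 lower, with a median log2 fold change of 0.70 against -0.02 over all tested contigs. The called share was 70%, against 35.3% of all tested contigs (18.1% higher and 17.2% lower). The list sum was 692 to 890 CPM at month 36, against 479 to 555 CPM at month 1. Part of the list (21 contigs) was collected from contigs over-expressed by ethephon in PB260, so its direction is not independent of that choice. All 6 tested members from that source were called higher, against 6 higher and 2 lower of the other 14 tested. The 6 higher among the other 14 lie in the clusters CL1076, CL1070 and CL1071, whose contigs may not be separate genes. The steepest increases were in 3 contigs, matching PTI6, WRKY40 and ERF112, that had almost no RNA at month 1. These 3 come from the ethephon source and reached a CPM of 1 only at month 36. They passed the count filter only because they were high there, so once tested they could only be higher.

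A contig like PTI6, an ERF-type activator of pathogenesis-related genes in tomato, had 3.26, 6.042 and 5.09 CPM at month 36, against 0.136, 0.0841 and 0.179 CPM at month 1. All month 36 trees were far above all month 1 trees, and CL1Contig16711 rose 34.6-fold (log2 fold change 5.11, SE 0.41, adjusted p = 1.4e-05 in edgeR). A contig like WRKY40, a factor that in Arabidopsis tempers defence responses, had 1.43, 10.6 and 2.001 CPM at month 36, against 0.136, 0.210 and 0.0896 CPM at month 1. Month 36 replicate 2 stood above the other trees of its group, and CL8780Contig3 rose 30.1-fold (log2 4.91, SE 0.87, adjusted p = 0.00131). The ERF112-like contig CL8139Contig1, another ethylene response factor, had 1.38, 5.09 and 2.79 CPM at month 36, against 0.340, 0.294 and 0.762 CPM at month 1. It rose by 2.67 on the log2 scale (SE 0.51, adjusted p = 0.00200). These 3 contigs reach a CPM of 1 only at month 36, so they fall under the count filter when a month 36 library is left out.

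The bHLH factors followed the same direction at higher levels. The MYC4-like contig CL10144Contig1, from the MYC family that carries jasmonate signals, had 56.5, 89.3 and 71.9 CPM at month 36, against 9.39, 47.6 and 3.45 CPM at month 1. The groups did not overlap, but month 1 replicate 2 lay close to the month 36 trees, and the log2 fold change of 1.84 had an SE of 0.65 (adjusted p = 0.0445). The bHLH147-like contig CL1Contig10832 had 51.5, 61.9 and 91.2 CPM at month 36, against 35.2, 41.7 and 28.6 CPM at month 1 (log2 0.95, SE 0.22, adjusted p = 0.00602). The bHLH149-like contig CL4432Contig2 had 19.9, 19.6 and 21.3 CPM at month 36, against 13.3, 11.5 and 11.6 CPM at month 1 (log2 0.74, SE 0.15, adjusted p = 0.00266). Both are members of the basic helix-loop-helix family without a role known here in latex, and neither overlapped between the groups.

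Subunits of nuclear factor Y moved in opposite directions. Nuclear factor Y binds CCAAT boxes as a trimer in which subunits B and C form a histone-like pair and subunit A gives the sequence contact. The 3 contigs matching subunit B-10 rose, with log2 fold changes of 1.89 for CL1076Contig6, 1.54 for CL1076Contig10 and 1.09 for CL1076Contig7 (adjusted p = 9.0e-05, 0.000508 and 0.000721). The most abundant of them, CL1076Contig7, had 15.8, 20.9 and 17.3 CPM at month 36, against 9.79, 8.11 and 7.53 CPM at month 1. The 2 contigs matching subunit A-1 fell, by 0.85 on the log2 scale in CL1022Contig6 (SE 0.18, adjusted p = 0.00314) and by 1.28 in CL1022Contig7 (SE 0.27, adjusted p = 0.00400). CL1022Contig6 had 5.24, 4.67 and 4.25 CPM at month 36, against 8.57, 8.15 and 8.87 CPM at month 1, with no overlap between the groups. Contigs of 1 cluster (the same CL number) can be forms of 1 gene and are not independent.

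Smaller increases were found in RF2a, a bZIP factor first described in rice, and in a homeobox contig. RF2a contig CL1070Contig3 had 34.4, 36.3 and 45.2 CPM at month 36, against 19.5, 17.5 and 26.1 CPM at month 1 (log2 0.88, SE 0.18, adjusted p = 0.00358), and CL1070Contig6 had a log2 fold change of 0.44 (SE 0.14, adjusted p = 0.0301). The homeobox contig CL1071Contig3 was the most abundant of the list, with 224, 354 and 273 CPM at month 36, against 166, 192 and 185 CPM at month 1 (log2 0.65, SE 0.19, adjusted p = 0.0193). Another contig of its cluster, CL1071Contig1, had a log2 fold change of 0.28 and was not called (adjusted p = 0.156). The other 5 tested factors, which include a WRKY, a NAC and a dehydration-responsive factor, had log2 fold changes between -0.23 and 0.32 and were not called.

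The count of 12 transcription factors called higher fell to 6 without month 36 replicate 2 and to 7 without month 36 replicate 3, and was 9 to 11 without any other library. The call of CL10144Contig1 was lost without month 36 replicate 2 or 3 (adjusted p = 0.0865 and 0.0841), without month 1 replicate 1 or 3 (0.143 and 0.0646) and in DESeq2 (0.145), and that of CL1071Contig3 without month 36 replicate 2 (0.0860) or month 1 replicate 1 or 2 (0.0514 and 0.0535). That of CL1070Contig6 was lost without month 36 replicate 2 or 3 (0.0713 and 0.0744) or month 1 replicate 1 or 2 (0.0724 and 0.0946), with library totals in place of TMM (0.113) and without a count filter (0.0557). With all 12 PB217 libraries in one fit, the calls of CL4432Contig2 and CL1070Contig6 were lost (0.143 and 0.0715).

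**Figure D2:**
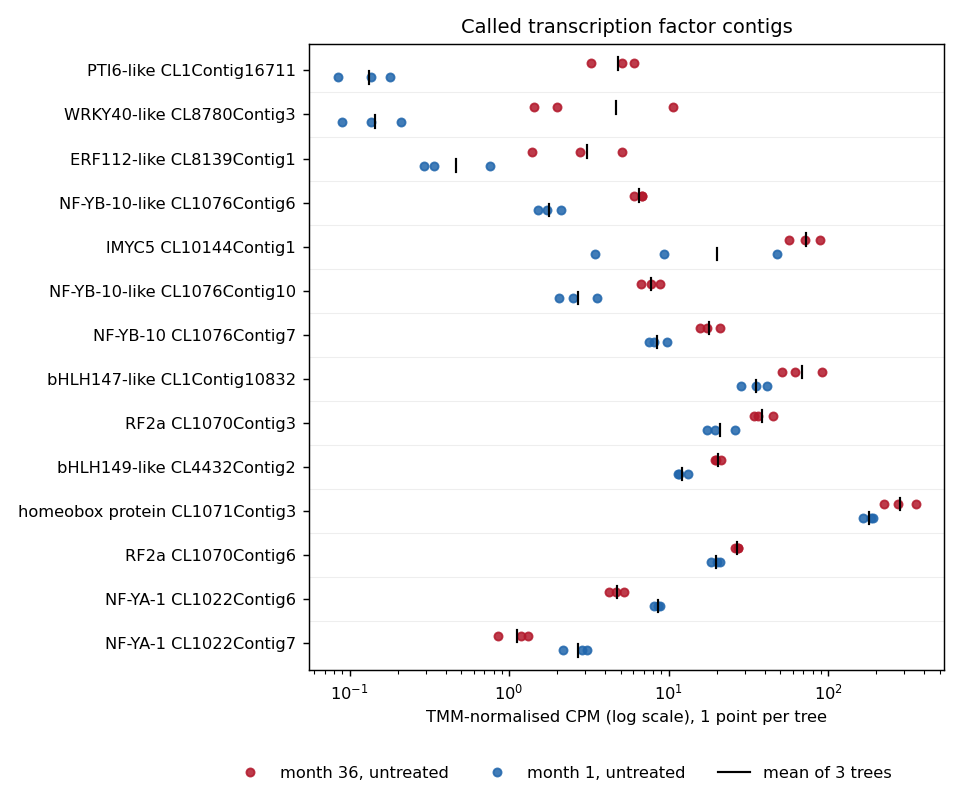
Each row is 1 of the 14 called transcription factor contigs, ordered by log2 fold change, and each point the TMM-normalised CPM of 1 tree (log scale), month 36 in red above month 1 in blue, with a black bar at the mean of 3 trees. The groups do not overlap in any row, as in 97.2% of all called contigs. The 2 NF-YA contigs at the bottom are the only ones lower at month 36.

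Called membrane transporters were mostly lower at month 36. Of 49 listed contigs, 18 were tested, with 7 lower and 2 higher and a median log2 fold change of -0.35. The called share was 50%, against 35.3% of all tested contigs (17.2% lower and 18.1% higher). The list sum was 133 to 159.3 CPM at month 36, against 178 to 265 CPM at month 1. ABC transporters, which move diverse compounds across membranes at the expense of ATP, made up 5 of the 7 called lower, and these 5 belong to 1 cluster, so they may not be separate genes.

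All 5 tested contigs of the ABC cluster CL1080 fell. Of these, CL1080Contig6 reached a CPM of 1 only at month 1, so once tested it could only be lower. The most abundant, CL1080Contig4, matched an ABC transporter of Hevea and had 24.4, 17.5 and 24.4 CPM at month 36, against 39.7, 39.01 and 66.2 CPM at month 1 (log2 -1.13, SE 0.22, adjusted p = 0.00265). CL1080Contig7, which matched a multidrug resistance protein, had 13.5, 10.5 and 14.1 CPM at month 36, against 27.4, 31.4 and 44.1 CPM at month 1 (log2 -1.43, SE 0.20, adjusted p = 0.000333). Every month 36 tree lay below every month 1 tree in both. The remaining members, CL1080Contig2, CL1080Contig1 and CL1080Contig6, had log2 fold changes of -1.29, -1.47 and -2.21 (adjusted p = 0.00157, 0.00478 and 0.000443). CL1080Contig6 matched ABC transporter B family member 19, known in Arabidopsis to carry auxin. The ABC contigs outside this cluster, CL10653Contig1 and CL10542Contig1, had log2 fold changes of 0.21 and -0.41 and were not called.

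The largest decrease among annotated contigs was in an oligopeptide transporter. CL1Contig4672 resembles OPT3, an iron and copper transporter of phloem cells in Arabidopsis, and had 0.988, 0.718 and 0.546 CPM at month 36, against 10.3, 9.04 and 26.7 CPM at month 1. It was 20.1-fold lower at month 36 (log2 -4.33, SE 0.45, adjusted p = 6.1e-05), and it passed the count filter only through the month 1 libraries. TRANSPARENT TESTA 12, a MATE-type carrier of flavonoids into the vacuole in Arabidopsis seeds, was matched by CL10827Contig3, with 18.1, 10.8 and 10.6 CPM at month 36, against 16.5, 21.5 and 32.7 CPM at month 1. Its groups overlapped in 1 tree (log2 -0.84, SE 0.27, adjusted p = 0.0285).

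The 2 transporters called higher concern cations. The potassium channel contig CL10139Contig1 had 26.2, 13.6 and 16.7 CPM at month 36, against 13.1, 9.79 and 11.5 CPM at month 1 (log2 0.73, SE 0.23, adjusted p = 0.0282). The HMA3-like contig CL1039Contig2, a heavy-metal ATPase, had 26.7, 32.1 and 29.3 CPM at month 36, against 20.8, 24.4 and 20.7 CPM at month 1 (log2 0.42, SE 0.15, adjusted p = 0.0475).

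Both of these calls were weak. That of CL1039Contig2 was lost in DESeq2 and in edgeR's exact test (adjusted p = 0.0513 and 0.0571) and without any library other than month 36 replicate 1 (0.0684 to 0.141), and that of CL10139Contig1 without month 36 replicate 1 or month 1 replicate 2 or 3 (0.0996, 0.118 and 0.0628). Without month 1 replicate 3 the transporters called lower were 4 instead of 7. There CL1080Contig6 and CL1Contig4672 fall under the count filter, and CL10827Contig3 was not called (adjusted p = 0.134). Its call was also lost without month 36 replicate 2 or 3 (0.0932 and 0.112). With all 12 PB217 libraries in one fit, the calls of CL1039Contig2, CL10139Contig1 and CL10827Contig3 were all lost (0.138, 0.0647 and 0.0670).

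**Figure D3:**
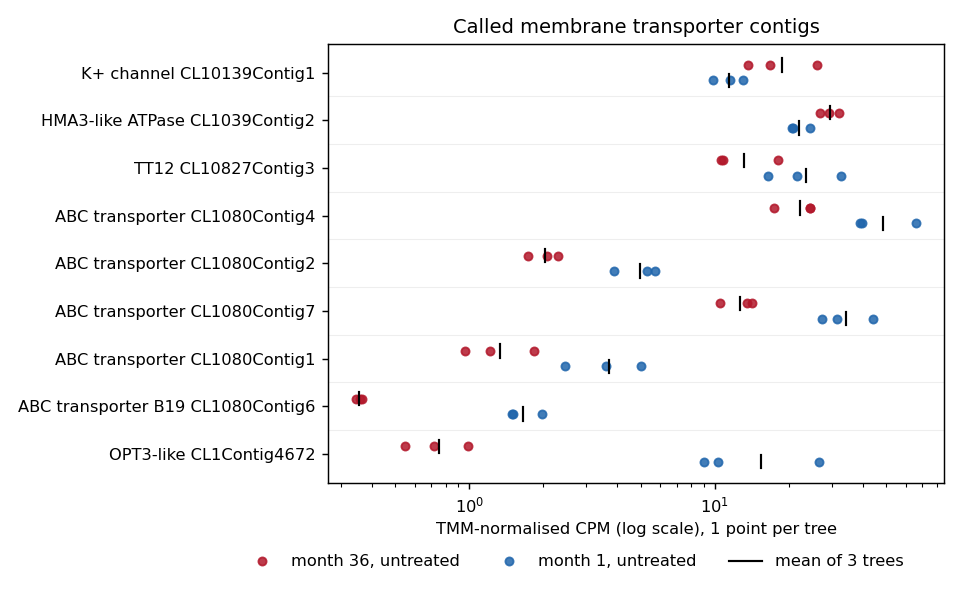
Each row is 1 of the 9 called membrane transporter contigs, ordered by log2 fold change, and each point the TMM-normalised CPM of 1 tree (log scale), month 36 in red above month 1 in blue, with a black bar at the mean of 3 trees. The ABC contigs and the OPT3-like contig are lower in all month 36 trees, and the TT12 row is the only one whose groups overlap.

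Protein kinases and phosphatases were called about as often as contigs in general. Of 64 listed contigs 18 were tested, and 5 were higher and 1 lower at month 36 (33.3% called, against 35.3% of all tested contigs), with a median log2 fold change of 0.35. The contig like WNK4, of a plant kinase family without the usual catalytic lysine, had 1.38, 5.44 and 2.24 CPM at month 36, against 0.0680, 0.336 and 0.0896 CPM at month 1. CL1Contig16293 was thus 16.2-fold higher (log2 4.02, SE 0.64, adjusted p = 0.000692). It reached a CPM of 1 only at month 36, so once tested it could only be higher. A receptor-like kinase, CL10646Contig1, had 3.11, 5.03 and 4.55 CPM at month 36, against 0.884, 1.47 and 0.896 CPM at month 1 (log2 1.93, SE 0.29, adjusted p = 0.000531). The cyclin-dependent kinase contig CL1027Contig5 and the serine-threonine kinase contig CL10199Contig1 rose by 1.96 and 1.30 on the log2 scale (adjusted p = 0.00170 and 0.000250). Of these, CL1027Contig5 also reached a CPM of 1 only at month 36, so once tested it could only be higher.

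A protein phosphatase 2C contig, CL1Contig4306, of a family that counteracts kinases in hormone and stress signalling, had 4.35, 3.95 and 5.03 CPM at month 36, against 2.31, 2.48 and 2.78 CPM at month 1 (log2 0.81, SE 0.21, adjusted p = 0.0118), a call lost with all 12 PB217 libraries in one fit (0.157). The calcium-dependent kinase contig CL10154Contig1, which links calcium signals to phosphorylation, had 0.198, 0.120 and 0.303 CPM at month 36, against 1.56, 1.77 and 1.30 CPM at month 1. It was 7.29-fold lower (log2 -2.87, SE 0.39, adjusted p = 0.000286) and the only called contig among the 6 tested of the calcium and calmodulin list (16.7%, against 35.3% of all tested contigs). The most abundant kinases, which matched casein kinase II and casein kinase, were not called: CL1084Contig3, CL1084Contig2 and CL1005Contig4 had log2 fold changes of -0.40, -0.26 and -0.27 (adjusted p = 0.109, 0.290 and 0.149). CL1084Contig3 was called without month 36 replicate 1 (0.0305). CL10154Contig1 falls under the count filter without any month 1 library, so once tested it could only be lower. Without month 36 replicate 2 the kinases called higher were 3.

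Among contigs for making and processing RNA the share called was near that of all tested contigs. Of 24 listed contigs 12 were tested, with 3 lower and 0 higher (25% called, against 35.3% of all tested contigs) and a median log2 fold change of -0.43, and the list sum was 198 to 253 CPM at month 36, against 392 to 433 CPM at month 1. Most of that sum was 1 contig, the ATP-dependent RNA helicase CL1049Contig1, with 149, 118 and 165 CPM at month 36, against 302, 287 and 339 CPM at month 1 (log2 -1.10, SE 0.17, adjusted p = 0.000687). RNA helicases unwind RNA during splicing, ribosome assembly and translation. The largest subunit of RNA polymerase II, which makes messenger RNA, was matched by CL1075Contig2, with 3.01, 2.75 and 2.91 CPM at month 36, against 5.85, 9.58 and 7.88 CPM at month 1 (log2 -1.43, SE 0.22, adjusted p = 0.000577). Groups did not overlap in either. The third, CL10323Contig1, matched translation initiation factor 2c, the Argonaute family of small RNA carriers, and fell by 0.92 on the log2 scale (SE 0.27, adjusted p = 0.0211). Its call was lost without month 36 replicate 1 (0.0838) or month 1 replicate 1 or 3 (0.0686 and 0.0512).

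Protein folding and turnover contigs were also called at near the general share. Of 7 tested chaperone contigs 2 were lower and 0 higher (28.6% called, against 35.3% of all tested contigs), both of them chaperonin 10 contigs, the lids of the chaperonin barrel of plastids and mitochondria. CL1007Contig1 had 15.4, 14.7 and 15.5 CPM at month 36, against 24.55, 26.3 and 29.8 CPM at month 1 (log2 -0.83, SE 0.15, adjusted p = 0.00139), and CL1007Contig5 had 12.8, 10.1 and 12.7 CPM at month 36, against 23.7, 20.3 and 20.3 CPM at month 1 (log2 -0.85, SE 0.16, adjusted p = 0.00192). In each, all month 36 trees were below all month 1 trees. Of 11 tested ubiquitin and proteolysis contigs 3 were lower and 0 higher (27.3% called). They were the RING finger contigs CL1034Contig4 and CL1034Contig6 (log2 -0.76 and -0.99, adjusted p = 0.00238 and 0.00335) and the ubiquitin ligase E3 alpha contig CL10463Contig1 (log2 -1.02, adjusted p = 0.00520), all of which tag proteins for degradation. The ribosomal L38 contig CL102Contig4, of the large subunit, had 54.04, 54.4 and 55.9 CPM at month 36, against 98.3, 81.3 and 74.5 CPM at month 1 (log2 -0.63, SE 0.15, adjusted p = 0.00872), the only call of 3 tested ribosomal protein contigs (33.3% called). No call was made among 14 tested pentatricopeptide repeat contigs, which edit and process organelle RNA, or among 5 tested vesicle transport contigs, whose median log2 fold changes were -0.05 and -0.58. The most abundant pentatricopeptide repeat contig, CL1040Contig1, was not called, with 79.8, 101.1 and 92.7 CPM at month 36, against 132, 118 and 107 CPM at month 1 (log2 -0.38, adjusted p = 0.0799).

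Hormone signalling contigs were few but included large changes. Histidine-containing phosphotransfer proteins pass the cytokinin signal from membrane receptors to response regulators in the nucleus. CL104Contig15 of this family had 2.32, 2.99 and 1.15 CPM at month 36, against 0, 0.252 and 0.224 CPM at month 1 (log2 3.55, SE 0.55, adjusted p = 0.000587). The more abundant CL104Contig16 had 39.1, 40.8 and 31.8 CPM at month 36, against 26.7, 27.3 and 26.3 CPM at month 1 (log2 0.48, SE 0.15, adjusted p = 0.0274). Both were higher in all month 36 trees. However, CL104Contig15 falls under the count filter without any month 36 library, so once tested it could only be higher. The call of CL104Contig16 was lost without every library other than month 36 replicate 3 (adjusted p = 0.0521 to 0.0914), with library totals in place of TMM (0.0755) and with all 12 PB217 libraries in one fit (0.474). BIG, a very large protein needed for auxin transport in Arabidopsis, was matched by CL10836Contig1, with 4.54, 4.73 and 3.21 CPM at month 36, against 8.71, 16.9 and 10.6 CPM at month 1 (log2 -1.54, SE 0.26, adjusted p = 0.000960). These 3 were the called contigs of 4 tested on the cytokinin and auxin list (75%, against 35.3% of all tested contigs), and the calls higher were 0 instead of 2 without month 36 replicate 1 or 2 and 1 without any other library.

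Jasmonate synthesis starts with the release of linolenic acid by phospholipases and its oxidation by lipoxygenase, allene oxide synthase and allene oxide cyclase. Of 8 listed contigs only 2 were tested and 0 was called. The phospholipase A1 contig CL1Contig21396 had 2.62, 17.6 and 6.73 CPM at month 36, against 0.476, 8.995 and 0.179 CPM at month 1 (log2 1.40, SE 0.91, adjusted p = 0.257). Month 1 replicate 2 alone among its group reached the month 36 levels. Without it, the log2 fold change was 4.84 (adjusted p = 0.00305), and the contig was also called with the replicate block (log2 2.21, 0.0108) and without a count filter (9.5e-09). The same tree was also high in CL10144Contig1, the MYC4-like contig, and it lay over 4-fold above both other month 1 trees in 8 contigs on the CPM + 1 scale. The lipoxygenase 6 contig CL1554Contig7 had 3.41, 2.33 and 2.43 CPM at month 36, against 2.24, 2.31 and 1.93 CPM at month 1 (log2 0.34, adjusted p = 0.303). Allene oxide synthase contig CL1Contig911 and allene oxide cyclase contig CL10285Contig1 were under the filter, with 46 and 32 pairs summed over the month 36 libraries, against 4 and 6 pairs over the month 1 libraries, and were not tested.

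Among 6 tested defence and wounding contigs, 1 was called higher at month 36, the PTI6-like contig described above, and 1 was called lower (33.3% called, against 35.3% of all tested contigs). The list gave 0 contigs lower in DESeq2 and 0 to 2 when 1 library was left out.

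Latex proteins were led by HbTCTP1, a translationally controlled tumour protein, a conserved protein of growth and stress responses. Of 4 tested contigs 2 were called, both higher and both of HbTCTP1 (50%, against 35.3% of all tested contigs). CL1Contig7138 was among the most abundant annotated contigs, with 2745, 2749 and 3099 CPM at month 36, against 2268, 1404 and 1256 CPM at month 1 (log2 0.80, SE 0.24, adjusted p = 0.0215). The scarcer contig, CL1Contig21026, had 6.12, 4.91 and 5.09 CPM at month 36, against 4.15, 3.11 and 2.06 CPM at month 1 (log2 0.81, SE 0.26, adjusted p = 0.0277). Neither overlapped between groups, but both calls were lost without month 36 replicate 3 (0.0752 and 0.0510), without month 1 replicate 2 (0.107 and 0.0793) and without month 1 replicate 3 (0.0693 and 0.0852). That of CL1Contig21026 was also lost without month 36 replicate 1 (0.0680), and both with all 12 PB217 libraries in one fit (0.0896 and 0.134). The allergen Hev b 4 contig CL10238Contig1 had 8.25, 18.8 and 9.22 CPM at month 36, against 17.3, 13.6 and 4.75 CPM at month 1, and the 50 kDa protein contig CL10238Contig2 of the same cluster 26.8, 70.5 and 41.8 CPM, against 42.4, 25.8 and 16.1 CPM. Both overlapped between the groups and were not called (log2 0.03 and 0.73, adjusted p = 0.957 and 0.135). CL10238Contig2 was called higher without month 36 replicate 1 (log2 1.04, adjusted p = 0.0348), without month 1 replicate 1 (1.15, 0.0379) and without a count filter (0.000414).

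Of the isoprenoid and rubber list, 3 of 11 contigs were tested and 1 was called (33.3%, against 35.3% of all tested contigs). The terpene synthase contig CL10436Contig1, of the family that makes volatile and defensive terpenes, had 2.91, 4.43 and 3.27 CPM at month 36, against 1.43, 1.47 and 1.61 CPM at month 1 (log2 1.22, SE 0.25, adjusted p = 0.00304), a call lost with all 12 PB217 libraries in one fit (0.0566). Squalene epoxidase, the entry to sterols and thus a competitor for the isoprenoid units of rubber, was at 28.1, 24.35 and 28.4 CPM at month 36, against 23.7, 29.1 and 29.2 CPM at month 1 in CL1037Contig4 (log2 -0.02, SE 0.15, adjusted p = 0.932). The groups overlapped fully. The scarcer CL1037Contig1 of this cluster had a log2 fold change of -0.45 (adjusted p = 0.114). HMG-CoA reductase 3, a controlling enzyme of the mevalonate pathway, had too few pairs for a test, with 14 over the month 36 libraries and 11 over the month 1 libraries in CL5369Contig2.

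The other metabolic lists held 1 call each, with shares of 16.7 to 50%, against 35.3% of all tested contigs. The phosphofructokinase contig CL10416Contig1, of a regulated step of glycolysis, had 7.75, 6.82 and 5.64 CPM at month 36, against 10.7, 13.0 and 16.8 CPM at month 1 (log2 -1.005, SE 0.20, adjusted p = 0.00284), with no overlap, and was the only call of 2 tested sugar contigs. Its call was kept without any single library and lost with all 12 PB217 libraries in one fit (0.0724). An acyl-CoA binding protein contig, CL10567Contig1, which carries activated fatty acids, had 0.494, 0.479 and 0.606 CPM at month 36, against 2.45, 1.89 and 2.11 CPM at month 1 (log2 -2.01, SE 0.30, adjusted p = 0.000431) and was the only call of 6 tested fatty acid contigs. The abundant acyl carrier protein contig CL103Contig4 had 148, 153 and 139 CPM at month 36, against 154, 115 and 134 CPM at month 1 and was not called (log2 0.13, adjusted p = 0.570). The 3-ketodihydrosphingosine reductase contig CL1039Contig8, of early sphingolipid synthesis, had a log2 fold change of -1.10 (SE 0.32, adjusted p = 0.0200) and was the only call of 5 tested sphingolipid contigs, whose median was -0.54. The tocopherol methyltransferase contig CL1409Contig4, of vitamin E synthesis, had a log2 fold change of -1.30 (SE 0.38, adjusted p = 0.0207), the only call of 6 tested contigs for reactive oxygen and antioxidants, and its groups overlapped.

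The call of CL1409Contig4 was lost without month 36 replicate 1 or month 1 replicate 2 or 3 (adjusted p = 0.0719, 0.0991 and 0.0614) and with all 12 PB217 libraries in one fit (0.137). That of CL1039Contig8 was lost in DESeq2 (0.0527) and without month 36 replicate 3 (0.0733). Without any month 1 library, CL10567Contig1 and CL1039Contig8 fall under the count filter, so once tested they could only be lower.

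In the ascorbate pathway, the GDP-L-galactose phosphorylase contig CL1032Contig2 had 38.4, 41.8 and 43.1 CPM at month 36, against 49.0, 52.2 and 48.1 CPM at month 1, without overlap but not called (log2 -0.28, adjusted p = 0.144). Of 2 tested cell wall contigs 1 was called (50%, against 35.3% of all tested contigs). The expansin A4-like contig CL20361Contig1, which loosens walls, had 2.86, 2.27 and 2.73 CPM at month 36, against 3.26, 5.17 and 4.43 CPM at month 1 (log2 -0.72, SE 0.24, adjusted p = 0.0326). Its call was lost without every library other than month 1 replicate 1 (0.0545 to 0.1401), in DESeq2 (0.0538), with library totals (0.0523), with the replicate block (0.0616) and with all 12 PB217 libraries in one fit (0.225). The beta-galactosidase 3 contig CL101Contig18 had 297, 349 and 316 CPM at month 36, against 201, 220 and 297 CPM at month 1 and was not called (log2 0.42, adjusted p = 0.0930), but was called without month 1 replicate 3 (log2 0.61, adjusted p = 0.0229). Of the photosynthesis list only the PsbP domain contig CL1035Contig4 passed the filter, at 1.78, 2.154 and 1.70 CPM at month 36, against 0.816, 1.05 and 0.851 CPM at month 1 (log2 1.03, SE 0.27, adjusted p = 0.0127). A single tested contig gives no share to set against the 35.3% of all tested contigs.

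**Figure D4:**
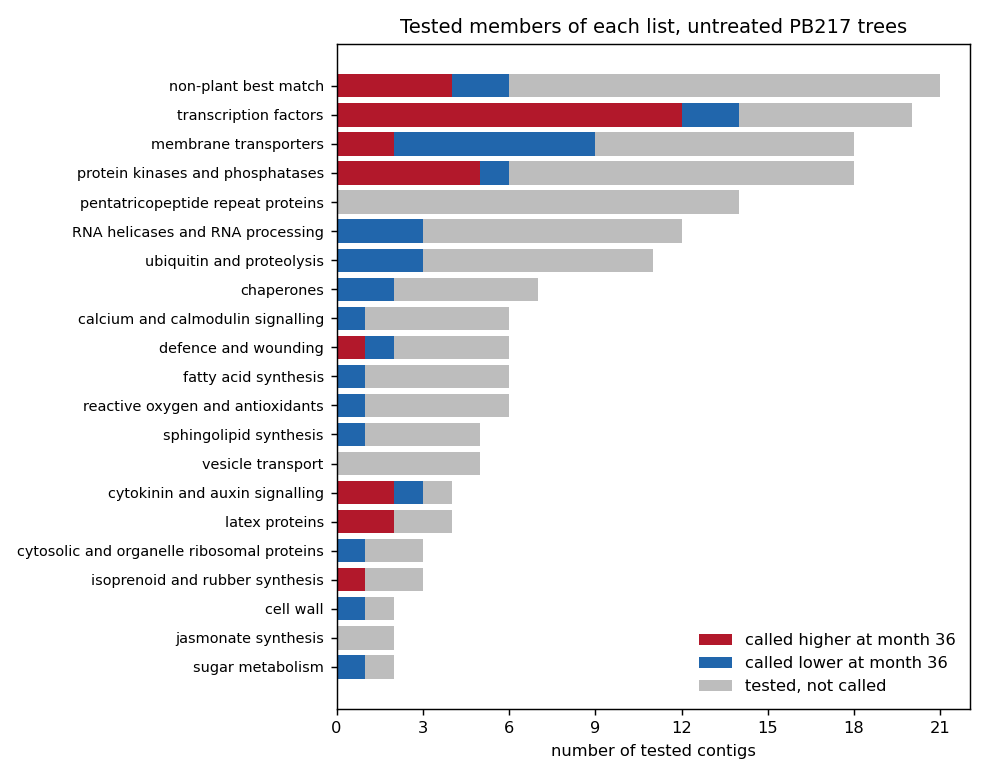
Bars give the number of tested contigs on each of the 21 lists with 2 or more tested contigs, split into those called higher at month 36 (red), called lower (blue) and not called (grey). Transcription factors hold the most red, with 12 of 20, and membrane transporters the most blue, with 7 of 18.

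The ethephon-treated PB217 trees were compared over the same interval, with no library shared with the untreated comparison. There, 6943 of 28798 tested contigs were called (24.1%) between month 36 trees with TPD and month 1 trees, 3469 higher (12%) and 3474 lower (12.1%), and time, TPD, prolonged ethephon and harvest day cannot be told apart, there or in the difference from the untreated trees. Of 27204 contigs tested in both comparisons, 3223 were called in the same direction and 142 in opposite directions. Among contigs tested in both, the shared calls were 33.8% of the untreated calls and 50.5% of the ethephon calls, and consisted of 1363 contigs higher at month 36 and 1860 lower. The difference of the 2 changes, tested as an interaction over the 12 libraries, was called in 2101 of 27691 contigs (7.59%), positive in 4.87% and negative in 2.72% of those tested. It was called in 1197 of the 9574 contigs called in untreated trees that could be tested (12.5%, against 7.59% of all tested). Among these, 712 had a larger increase in untreated trees and 293 a larger decrease. The other way went 50 contigs called higher and 142 called lower in untreated trees. All were chosen by their change in the untreated libraries, which also enter the difference. That choice favours both the share and its direction, so neither is a separate result. These counts depended on single libraries and on the scaling. The difference was called in 500 contigs without month 1 untreated replicate 2 and in 5255 without month 36 ethephon replicate 3, and the ethephon calls were 2364 without month 1 ethephon replicate 3. With library totals in place of TMM, the median log2 fold change of the ethephon comparison shifted by 0.56, the share of its calls higher at month 36 was 87.3% instead of 50%, and the share of called differences that were positive was 10.1% instead of 64.2%.

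Several contigs named above changed in one set of trees more than in the other. All these differences kept their sign in every setting that could be fitted, but of the 18 called differences among the named contigs only 1, that of CL10139Contig1, was called without month 1 untreated replicate 2, against 17 without month 36 ethephon replicate 3. The ERF112-like contig CL8139Contig1 rose by 2.67 on the log2 scale in untreated trees and by 7.53 in ethephon-treated trees (difference -4.87, adjusted p = 0.0412). This difference was not called, or could not be fitted, whichever of the 12 libraries was left out. The ethephon-treated month 36 trees had a mean of 102 CPM with an SD of 116 CPM in this contig. The bHLH149-like contig CL4432Contig2 rose by 0.74 and 3.05 (difference -2.33, adjusted p = 0.0219), and the bHLH147-like contig CL1Contig10832 by 0.95 and 2.44 (difference -1.51, adjusted p = 0.0337). For the PTI6-like CL1Contig16711 the changes were 5.11 and 7.25, for the WRKY40-like CL8780Contig3 4.91 and 8.70, and for the WNK4-like CL1Contig16293 4.02 and 8.42, and none of these differences was called (adjusted p = 0.233, 0.1596 and 0.162). For the MYC4-like CL10144Contig1 they were 1.84 and 1.86.

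The potassium channel contig CL10139Contig1 rose by 0.73 in untreated trees and fell by 1.32 in ethephon-treated trees (difference 2.02, adjusted p = 0.0152). BIG contig CL10836Contig1 and ribosomal L38 contig CL102Contig4 fell by 1.54 and 0.63 in untreated trees, while their changes of 0.31 and 0.37 in ethephon-treated trees were not called (differences -1.88 and -1.02, adjusted p = 0.0316 and 0.0338). In contrast, the ABC contigs CL1080Contig4 and CL1080Contig7 fell in both sets, by 1.13 and 1.43 in untreated trees and by 1.79 and 2.36 in ethephon-treated trees (difference adjusted p = 0.318 and 0.106). The RNA helicase contig CL1049Contig1 also fell in both, by 1.10 and 1.71 (difference adjusted p = 0.169). Squalene epoxidase contig CL1037Contig4, not called in untreated trees (log2 -0.02), fell by 1.19 in ethephon-treated trees (difference 1.14, adjusted p = 0.0358).

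**Figure D5:**
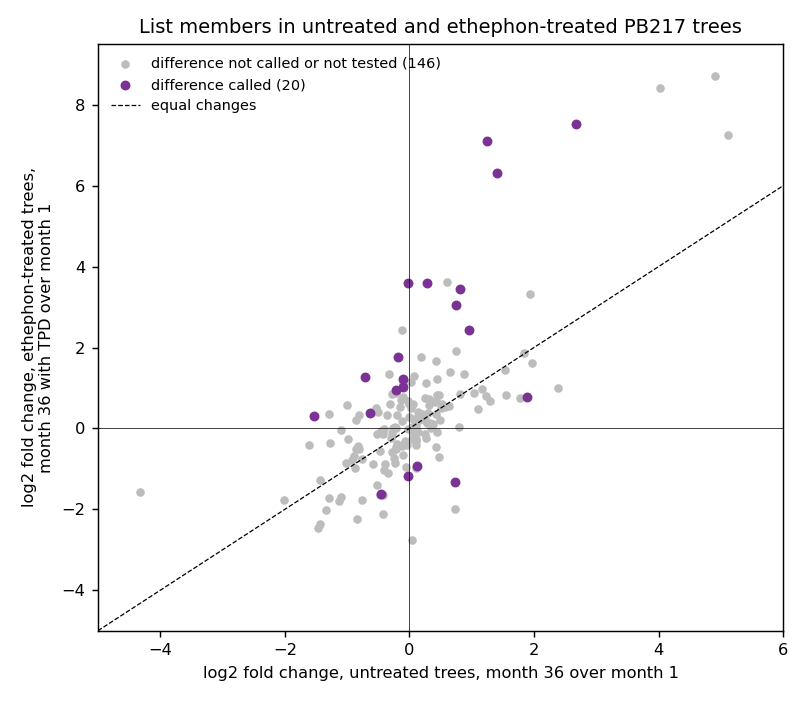
Each point is 1 of the 166 list members tested in both comparisons, with its log2 fold change, month 36 over month 1, in untreated trees (x axis) and in ethephon-treated trees whose month 36 trees had TPD (y axis). The dashed line marks equal changes, and the 20 purple points, whose difference was called by the interaction test, lie on both sides of it, those with the largest ethephon increases above it. Over all contigs tested for the difference, 7.59% were called.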

How the data were processed

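Latex RNA of 12 PB217 trees was used from 21 stranded, paired-end libraries. Per the labels and the methods, the authors trimmed reads, filtered out ribosomal ones and aligned the rest to PB260 contigs by local Bowtie2 alignment (the submitters' processing notes also name TopHat2). The deposited values are counts of read pairs, with both mates on a contig and ambiguous reads left out, so PB217 alleles that map poorly are undercounted. Month and ethephon were read from titles, since the labels call every tree untreated.

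Tests were run in edgeR 4.0.16 under R 4.3.3 (quasi-likelihood test, TMM, prior count 0.125, Benjamini-Hochberg 0.05) on the 6 libraries of each comparison, keeping contigs that reached a CPM of 1 in 3 or more libraries (for the difference, over 12 libraries, in 6 or more). An exact permutation test of 3 trees against 3 cannot give a two-sided p under 0.1. Mapped reads were 97.5 to 97.6% at month 36 and 96.8 to 97.5% at month 1, and no 2 replicates of an untreated group agreed within sampling noise. The script was tested on simulated counts.

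Alternatives were DESeq2 1.42.0, its size factors, library totals, no or another filter, edgeR's exact test, all 12 libraries in one fit, a replicate block and leaving out each library. Library totals, no filter and the block for single contigs, and lists without 1 library, were added after seeing the data. The comparison, the 23 lists and the contigs were chosen with earlier results of these data known. Annotation was held for 670 of the 27884 tested contigs, so lists are partial. Of 89 named contigs, 57 follow a rule (the 10 largest annotated changes in each direction without overlap, the 3 most abundant members of each list, contigs named by the study, the 2 largest unannotated changes in each direction, and the 5 most abundant annotated contigs) and 32 were picked with their values known. The rule also covers contigs that are not described here, and 1 called defence contig is not reported here. Contig sequences were not used here.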

Additional observations from a re-analysis of the deposited data

Results flagged for a closer look

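In 18 of the 89 contigs named here, the change between month 36 and month 1 differed between untreated and ethephon-treated PB217 trees by the interaction test over 12 libraries (edgeR, adjusted p under 0.05). Over all contigs tested for the difference, 7.59% were called. Since 32 of the 89 were picked with their values known, the count of 18 is no result about the named contigs as a set. Each difference below is the log2 fold change in untreated trees minus that in ethephon-treated trees, whose month 36 trees had TPD.

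The difference was negative in 10 contigs. Those higher at month 36 in both sets, and more so with ethephon, were the resveratrol methyltransferase-like contig CL1Contig5676 (-5.91, with changes of 2.45 and 8.33), the ERF112-like CL8139Contig1 (-4.87), the protein phosphatase 2C contig CL1Contig4306 (-2.65, with changes of 0.81 and 3.44), the bHLH149-like CL4432Contig2 (-2.33) and the bHLH147-like CL1Contig10832 (-1.51). CL1Contig5676 had 5.14, 10.8 and 7.22 CPM at month 36, against 0.204, 3.45 and 0.269 CPM at month 1 in untreated trees, and its call there was lost in DESeq2 (adjusted p = 0.0833). The phospholipase A1 contig CL1Contig21396 differed by -4.92, with fitted changes of 1.40, not called, in untreated trees and 6.31 in ethephon-treated trees. Called lower at month 36 in untreated trees alone were the Fanconi anemia group I contig CL10521Contig1 (-2.01, with changes of -1.87 and 0.11), the expansin contig CL20361Contig1 (-2.004, with changes of -0.72 and 1.26), the BIG contig CL10836Contig1 (-1.88) and the ribosomal L38 contig CL102Contig4 (-1.02).

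The difference was positive in 8 contigs. The unannotated CL1Contig14440 (2.77) and CL1Contig19501 (1.94) rose in untreated trees by 2.71 and 2.19 and had changes of -0.08 and 0.23, not called, in ethephon-treated trees. The potassium channel contig CL10139Contig1 differed by 2.02 and the NF-YB contig CL1076Contig6 by 1.09, with changes of 1.89 and 0.78. Contigs not called in untreated trees and lower at month 36 in ethephon-treated trees were the hypothetical protein contig CL1003Contig4 (1.41, with changes of -0.08 and -1.51), the squalene epoxidase contigs CL1037Contig1 (1.15) and CL1037Contig4 (1.14) and the acyl carrier protein contig CL103Contig4 (1.02).

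These differences rested on few trees. Leaving out 1 of the 12 libraries left 1 to 17 of the 18 calls, with 1 without month 1 untreated replicate 2, 3 without month 1 untreated replicate 3 and 4 without month 1 ethephon replicate 3. The signs were kept wherever a contig could be fitted. The replicate number as a block left 12 calls, library totals in place of TMM 14, no count filter 15 and DESeq2 16. That of CL10139Contig1 was called in every one of these settings, and that of CL8139Contig1 in none of those with 1 library left out.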

How the results depend on the processing

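Under 8 other settings of scaling, filter, test and fit, the untreated comparison gave 7160 to 11888 called contigs, against 9831, and 49.2 to 56.2% of them were higher at month 36. Leaving out 1 library gave 6554 to 8751 calls (3506 to 4715 higher and 3048 to 4036 lower), and 8892 contigs were called in the same direction by all 3 tests. Other scalings shifted its median log2 fold change by 0.02 and -0.04. The ethephon comparison moved further: with library totals only 10817 contigs were called (9445 higher and 1372 lower), without a count filter 5643 were higher, and without 1 library the calls were 2364 to 7161 (1055 to 3622 higher and 1309 to 3684 lower). The test of the difference gave 4893 calls with library totals only (492 higher and 4401 lower), 4522 without a filter (2644 and 1878), 3645 in DESeq2 (2314 and 1331), and 500 to 5255 without 1 library (324 to 3027 higher and 161 to 2228 lower). The cause was not tested. With unit variance scaling the first principal component held 49.96% instead of 70.8%, and the second 16.3% instead of 9.64%. With all contigs that had a count, they held 65.5% and 10.9%. Calls summed over the lists were 57, and 42 to 52 without 1 library. Same-numbered trees did not deviate together (correlations of -0.11, 0.07 and -0.03), so the numbers pair nothing. With the replicate number as a block, 9094 contigs were called in the untreated comparison, 4156 in the ethephon comparison (1917 higher and 2239 lower), and 1451 for the difference (485 lower).

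Of 89 contigs named, 73 were called. Of these 20 lost the call under some setting and 0 reversed, while 5 others gained it. Contigs that were not called and changed sign were CL1003Contig4 (-0.16 to 0.018 without 1 library), CL10238Contig1 (-0.42 to 0.40 without 1 library) and CL1037Contig4 (0.000857 with DESeq2 size factors, 0.000486 in DESeq2, 0.0142 without a filter and 0.0121 to 0.0610 without 1 library). Among the calls, 421 contigs higher at month 36 reached a CPM of 1 in no month 1 library, and 311 lower in no month 36 library. Contigs that reached a CPM of 1 in 1 group alone could, once tested, only be higher in that group. They could not be refitted when a library of that group was left out. Among them are the PTI6-, WRKY40-, WNK4- and OPT3-like contigs. For these contigs the count of 20 lost calls does not cover those settings. At this depth, contigs under a CPM of 1 in most libraries could not be tested.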

Other observations

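Some of the largest changes lay in contigs without annotation here. Among the 76 tested contigs with a mean CPM above 1000, 5 were called and differed by over 4-fold, chosen after their values were seen. Over all 27884 tested contigs, 510 were called over 4-fold higher and 189 over 4-fold lower. CL1Contig10506 had 317, 163 and 291 CPM at month 36, against 2895, 3966 and 2635 CPM at month 1, and was 12.3-fold lower (adjusted p = 1.4e-05 in edgeR). CL1Contig14440 had 2817, 5969 and 2572 CPM at month 36, against 660, 602 and 477 CPM at month 1, a 6.53-fold increase (adjusted p = 0.000119). CL1Contig8340, CL1Contig19501 and CL117Contig2 rose 4.49-, 4.56- and 4.62-fold (adjusted p = 7.0e-05, 0.000100 and 0.000141). The groups did not overlap in any of these 5, as in 97.2% of all called contigs. The third most abundant contig of all, CL1Contig9774, had 13908, 10965 and 13020 CPM at month 36, against 66414, 46979 and 30148 CPM at month 1, and was 3.79-fold lower (adjusted p = 0.000836). Of the 100 contigs with the highest mean CPM, 30 were higher and 24 lower at month 36. This is near the share called among all tested contigs at a mean CPM of 100 or more (53.9%).

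The steepest unannotated increases were in CL9522Contig1 and CL7447Contig2, which had 1.21 to 7.18 and 2.30 to 5.56 CPM at month 36 and no pair in any month 1 library. Against a floor of 3 pairs over the month 1 group, they were at least 76.2-fold and at least 68.6-fold higher. The steepest decrease was in CL29047Contig1, with 1.23, 1.38 and 2.001 CPM at month 36, against 56.6, 41.5 and 30.1 CPM at month 1 (log2 -4.80, SE 0.28, adjusted p = 3.9e-06). CL30502Contig1 had 0, 0.120 and 0.0606 CPM at month 36, against 1.496, 1.85 and 1.61 CPM at month 1.

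Other annotated contigs with large changes belong to no list described so far. An ankyrin repeat contig, CL1033Contig4, rose 4.53-fold, and CL10788Contig2, matching an ATP binding protein, rose 4.16-fold with month 36 replicate 2 at 14.5 CPM, against 4.89 and 3.94 CPM in the other month 36 trees and 1.43 to 2.06 CPM at month 1 (adjusted p = 0.000278 and 0.00391). The helicase contig CL10682Contig1 and CL1051Contig4, matching a protein named CRP, were 2.71- and 3.02-fold lower (adjusted p = 0.00353 and 0.00198). CL1033Contig4 reached a CPM of 1 only at month 36, so once tested it could only be higher. CL10682Contig1 reached it only at month 1 and could only be lower. The abundant CL1045Contig2, a conserved hypothetical protein, had 273, 239 and 332 CPM at month 36, against 453, 489 and 507 CPM at month 1 (log2 -0.78, adjusted p = 0.00504), a call lost with all 12 PB217 libraries in one fit (0.155). The phytosulfokine 4-like contig CL1023Contig1, a precursor of a peptide growth signal, had 354, 321 and 326 CPM at month 36, against 543, 467 and 347 CPM at month 1 and was not called (adjusted p = 0.0896), although it was called without month 1 replicate 3 (0.0264) and with library totals in place of TMM (0.0364).

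Contigs whose best match is not a plant sequence summed to 122 to 148 CPM at month 36 and to 101.4 to 124 CPM at month 1, and those best matching powdery mildew to 3.17 to 5.09 CPM and to 2.52 to 3.45 CPM. Of 21 tested contigs of the first kind, 28.6% were called, against 35.3% of all tested contigs, and 4 were higher (CL10613Contig1, log2 2.38; CL10052Contig1, log2 1.77; CL10345Contig2, log2 1.56; CL10168Contig1, log2 1.17) and 2 lower (CL10588Contig1, log2 -1.34, and CL10094Contig1, log2 -1.61). The call of CL10168Contig1 was lost without month 1 replicate 2 or 3 (adjusted p = 0.0710 and 0.0786) and with all 12 PB217 libraries in one fit (0.206). CL10168Contig1 reached a CPM of 1 only at month 36, so once tested it could only be higher. Among contigs too scarce for a test, the HbTOM20 contigs CL1183Contig1 and CL1183Contig4 had 7 and 2 pairs over the month 36 libraries, against 10 and 1 pairs over the month 1 libraries, and the HbERF-IIb2 contig CL17512Contig1 had 0 pairs in all 6 libraries.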
